A study of Mus musculus with 14 samples.

Results

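Mice that lost GPR30 in astrocytes (AG-KO) were compared with wild-type (WT) mice in hippocampal poly(A) RNA. The comparison used the 4 AG-KO and 3 WT libraries of the 14 in the series, with 1 library per mouse. Genes were kept if their FPKM (fragments per kilobase of transcript, scaled to the mapped fragments of each library) was at least 0.5 in at least 3 of these 7 libraries, which left 16742 of 55450 genes. A gene could thus pass through the 3 WT mice alone or through AG-KO mice alone. Counts of these genes were tested with edgeR, and FPKM is given as the level. AG-KO mice carried homozygous floxed GPR30 alleles and a Cre recombinase under the mouse Gfap promoter (GPR30 fl/fl;GFAP-Cre). WT mice were the controls, and floxed mice without Cre or Cre mice without floxed alleles were not analysed here, so the deletion and the transgene cannot be told apart. Values of NG-KO mice (GPR30 fl/fl;NSE-Cre, deleted in neurons, 4 mice) and Δ3102 mice (GPR30 deleted in the whole body, 3 mice) are set beside those of AG-KO mice where they bear on a result. All mice were females of 10 weeks on the C57BL/6J strain. The deletion in AG-KO mice depends on where and when the Gfap promoter drives Cre, and the libraries were made from whole hippocampus.

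GPR30, encoded by Gper1, is a membrane G protein-coupled receptor for estrogen that raises cAMP and activates the MAP kinase and AKT pathways. Astrocytes clear glutamate and potassium around synapses, make cholesterol and lactate for neurons, and take on reactive states marked by GFAP and SERPINA3N after injury or inflammation. RNA from whole tissue mixes all of the cell types in it, and fewer cells of a type cannot be told apart from less RNA per cell.

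The libraries held 44527024 to 55655743 counts in AG-KO mice and 56399993 to 62669865 in WT mice, and no pair of libraries was identical. All 18 genes on a list of hippocampal field markers and all 30 on a list of homeostatic astrocyte genes passed the filter. AG-KO replicates 3 and 4 stood apart from AG-KO replicates 1 and 2. Mitochondrial genes took 6.74% and 7.17% of the counts in these 2 mice, 3.69% and 5.19% in AG-KO replicates 1 and 2, and 4.77% to 5.29% in WT mice. Genes with a longest transcript under 1000 bases had a median log2 CPM (counts scaled to library size) 0.43 and 0.40 below the WT mean in AG-KO replicates 3 and 4, and 0.07 and 0.06 below it in AG-KO replicates 1 and 2. Main counts are therefore given also without these pairs of mice. Separate mice were the replicates, and p weighs the difference of the groups against the spread between mice.

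Gper1 was expressed at a low level in AG-KO, NG-KO and WT mice. Its FPKM was 0.540, 1.38, 0.891 and 1.22 in the 4 AG-KO mice and 0.797, 1.146 and 3.05 in the 3 WT mice. The AG-KO values overlapped those of WT replicates 1 and 2, and WT replicate 3 lay above all others. The log2 fold change was -0.68 (SE 0.51, adjusted p = 0.595 from edgeR), the exact two-sided permutation p of FPKM was 0.429, and without WT replicate 3 the log2 fold change was 0.07. NG-KO mice had 1.10, 1.41, 0.975 and 1.11, and Δ3102 mice 0.0686, 0.145 and 0.0124. Against Δ3102 mice, the log2 fold change in AG-KO mice was 3.68 (SE 0.67, adjusted p = 0.180 from edgeR). A lower Gper1 level in AG-KO mice was not detectable in whole hippocampus at this depth and number of mice.

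Gper1 lies on the plus strand of GRCm38 chromosome 5 from 139423151 to 139427800, within the span of 3110082I17Rik on the minus strand. That gene had 2.76 ± 0.171 FPKM in AG-KO mice and 3.43 ± 0.301 in WT mice (SD, n = 4 and 3), without overlap, at a log2 fold change of -0.29 (SE 0.14, adjusted p = 0.452 from edgeR). The kit marked strand, but the strand setting of the counting is not given in the sources used here, so counts of these overlapping genes are uncertain. The same span holds Gpr146, another G protein-coupled receptor, 26.7 kb from Gper1, which was singled out after its values were seen. Gpr146 had 3.05, 2.32, 2.96 and 3.27 FPKM in AG-KO mice and 0.0462, 0.517 and 0.935 in WT mice. It was also at 1.57 to 2.67 in NG-KO mice and 2.83 to 2.90 in Δ3102 mice, so that the 3 WT mice stood below all 11 others. The log2 fold change was 2.58 (SE 0.77, unadjusted p = 0.0105 and adjusted p = 0.345 from edgeR).

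Genes around Gper1 were examined next. Of 177 other tested genes within 5 Mb, 16 were higher and 4 lower in AG-KO mice at an unadjusted p under 0.05. This is 11.3%, against 12.2% of all tested genes (5.86% higher and 6.31% lower). Within 1 Mb, 5 of 27 genes were higher (18.5%) and 0 lower, against 5.86% and 6.31% of all tested genes. The 5 higher genes were Gpr146, Micall2, Ints1, Elfn1 and Fam20c. Elfn1, a postsynaptic adhesion protein of interneuron inputs, had 9.16 ± 0.701 FPKM in AG-KO mice and 6.32 ± 1.146 in WT mice (SD, n = 4 and 3). Ache, acetylcholinesterase, 2129 kb away, had 12.5 ± 1.10 FPKM in AG-KO mice and 7.63 ± 1.63 in WT mice (SD, n = 4 and 3), at a log2 fold change of 0.74 (adjusted p = 0.294 from edgeR).

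**Figure D1:**
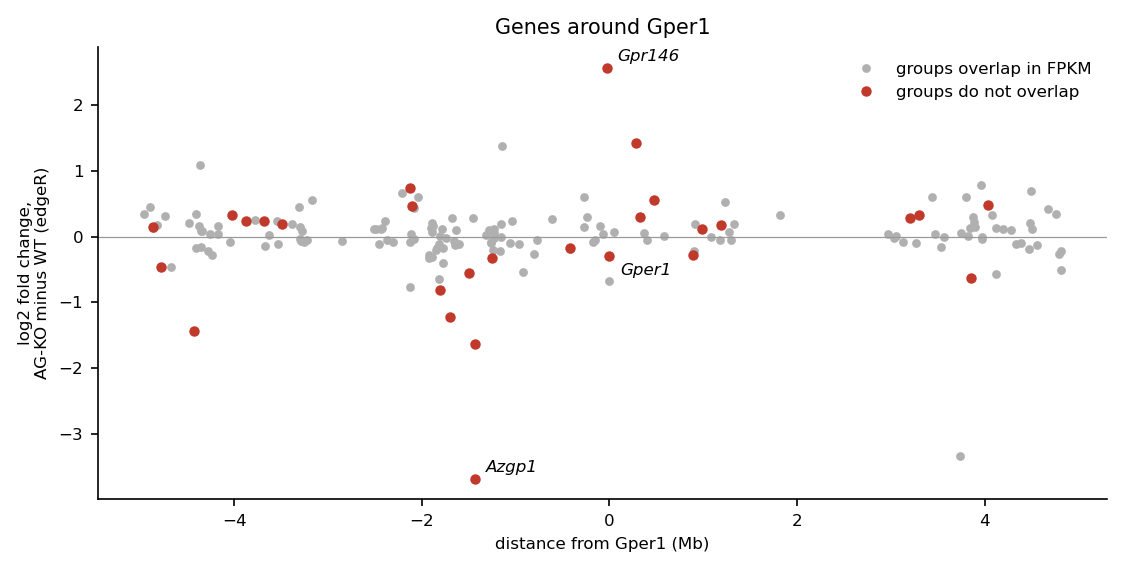
Log2 fold change of counts in AG-KO against WT mice (y axis) for the tested genes within 5 Mb of Gper1, by distance from Gper1 in Mb (x axis). Red points are the 28 of 178 genes whose AG-KO and WT mice do not overlap in FPKM, and gray points the others, Gper1 included. Over all tested genes, the groups do not overlap for 13.7%. Gpr146, beside Gper1, has the highest value, 2.58.

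At a 5% false discovery rate, edgeR called 7 genes (0.0418%), 4 higher (0.0239%) and 3 lower (0.0179%) in AG-KO mice. Only Adgrl1 and Magi1, both higher, are named protein-coding genes, and the other 5 are predicted genes or a long noncoding RNA. At an unadjusted p under 0.05, 981 genes were higher (5.86%) and 1057 lower (6.31%). In FPKM, all AG-KO mice lay above all WT mice for 874 genes (5.22%) and below them for 1424 (8.51%). DESeq2 called 323 genes (1.93%), the 7 included.

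The adhesion receptor gene Adgrl1 rose in AG-KO mice. It encodes latrophilin 1, a G protein-coupled receptor at synapses that binds teneurins and FLRT proteins on the opposite cell. Adgrl1 had 50.7, 50.6, 56.5 and 54.6 FPKM in AG-KO mice and 24.7, 26.4 and 25.2 in WT mice. The groups lay far apart, with little spread within either. The log2 fold change was 1.09 (SE 0.088, adjusted p = 0.0111 from edgeR), and the exact permutation p was 0.0286, the smallest that 4 against 3 mice allow. NG-KO mice had 53.5, 50.3, 48.9 and 51.6 FPKM, and the log2 difference of AG-KO from NG-KO mice was 0.07 (SE 0.12, adjusted p = 0.824 from edgeR). The level in Δ3102 mice was 42.2 in replicate 1, and 29.4 and 25.7 in replicates 2 and 3. Both Cre genotypes thus stood above the WT mice, and Δ3102 replicate 3 lay within the WT range. Gm10644, which overlaps the end of Adgrl1 on chromosome 8, had 2.51 ± 0.595 FPKM in AG-KO mice and 1.399 ± 0.163 in WT mice (SD, n = 4 and 3). Prkaca, which encodes a catalytic subunit of protein kinase A and lies 31.0 kb beyond Adgrl1, had 82.2 ± 5.51 FPKM in AG-KO mice and 81.5 ± 1.81 in WT mice (SD, n = 4 and 3).

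Magi1 rose to 5.21, 4.75, 5.21 and 5.38 FPKM in AG-KO mice, against 2.67, 2.34 and 2.91 in WT mice. It encodes a scaffold protein with PDZ domains at cell junctions. The log2 fold change was 0.99 (SE 0.11, adjusted p = 0.0438 from edgeR). NG-KO mice were split: replicates 2 and 4 had 4.85 and 5.18 FPKM, whereas 3.10 and 2.47 were found in replicates 1 and 3. Δ3102 mice had 3.38, 4.80 and 3.39. The log2 difference from NG-KO mice was 0.42 (SE 0.20) and from Δ3102 mice 0.44 (SE 0.22), with adjusted p of 0.370 and 0.488 from edgeR.

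Of the noncoding and predicted genes that passed, 2 were higher in AG-KO mice. AC102496, a long intergenic noncoding RNA on chromosome 18, had 11.9, 11.9, 8.94 and 10.7 FPKM in AG-KO mice and 2.12, 2.09 and 2.10 in WT mice (log2 fold change 2.39, SE 0.16, adjusted p = 0.00778 from edgeR). AC102496 was at 1.75 to 7.64 FPKM in NG-KO mice and at 7.40 to 8.35 in Δ3102 mice. Gm5641, a transcribed pseudogene on chromosome 3, had 4.64, 4.07, 4.81 and 5.37 FPKM in AG-KO mice and 0.503, 0.828 and 0.848 in WT mice (2.71, SE 0.27, adjusted p = 0.0275 from edgeR). For Gm5641, NG-KO replicate 4, at 0.418 FPKM, lay beside the WT mice. The other 3 NG-KO mice, at 3.48 to 4.89, and all Δ3102 mice, at 4.51 to 4.87, lay beside the AG-KO mice.

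The 3 predicted genes that fell were nearly silent in AG-KO mice. All of their AG-KO values were under 0.5 FPKM, so they passed the filter only through the 3 WT mice. Gm15446, a predicted protein-coding gene on chromosome 5, had 0.217, 0.280, 0.279 and 0.137 FPKM in AG-KO mice and 3.50, 4.38 and 3.11 in WT mice (log2 fold change -3.94, SE 0.29, adjusted p = 0.00778 from edgeR). It was at 2.00 to 2.99 FPKM in NG-KO mice and 1.07 to 2.50 in Δ3102 mice. AG-KO mice were therefore below every other mouse of the series. Gm15446 differed from NG-KO mice by a log2 value of -3.37 (SE 0.31, adjusted p = 0.000187 from edgeR) and from Δ3102 mice by -3.02 (SE 0.31, adjusted p = 0.00255).

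Gm16867 and Gm27177 lie 78.8 kb apart on chromosome 14. Gm16867 had 0.0402, 0.0677, 0.125 and 0.167 FPKM in AG-KO mice and 3.36, 2.82 and 2.42 in WT mice (log2 fold change -4.77, SE 0.48, adjusted p = 0.0275 from edgeR). Gm27177 had 0.170, 0.0900, 0.2999 and 0.171 FPKM in AG-KO mice and 3.08, 3.59 and 2.72 in WT mice (-4.04, SE 0.38, adjusted p = 0.0260). Gm16867 was at 0.0573 and 0.123 FPKM in NG-KO replicates 1 and 3, and at 3.19 and 2.23 in replicates 2 and 4. Gm27177 was at 0.0954 and 0.347 in NG-KO replicates 1 and 3, and at 2.47 and 2.89 in replicates 2 and 4. In all Δ3102 mice Gm16867 was at 0.0526 to 0.111 and Gm27177 at 0.0476 to 0.127. Gm27177 is annotated as antisense, and their spans overlap those of Entpd4 and Entpd4b, near-identical genes for a nucleotidase of the Golgi, and counts of such copies are uncertain. Entpd4b had 4.46, 4.63, 4.86 and 5.31 FPKM in AG-KO mice and 10.9, 8.83 and 8.01 in WT mice (-0.91, SE 0.14, adjusted p = 0.123). Entpd4 had 3.26 ± 0.426 FPKM in AG-KO mice and 5.35 ± 0.413 in WT mice (SD, n = 4 and 3). In Entpd4b, NG-KO replicates 2 and 4 had 9.24 and 8.37 FPKM, and NG-KO replicates 1 and 3 had 5.28 and 4.70. All Δ3102 mice were at 4.91 to 5.12. R3hcc1 and Chmp7, the next genes on that side, had log2 fold changes of 0.02 and 0.02.

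**Figure D2:**
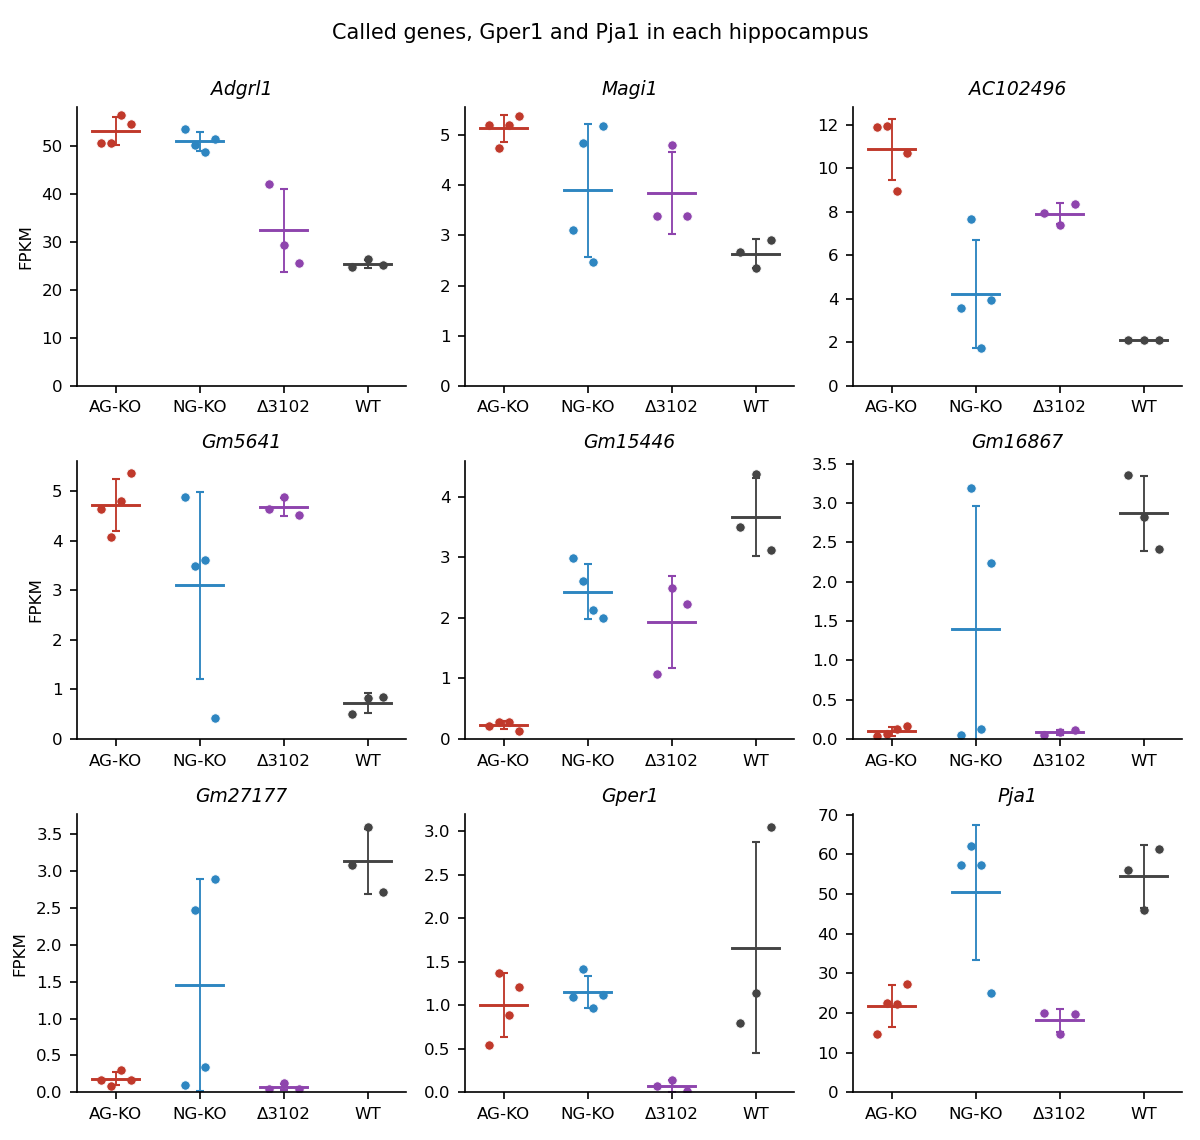
FPKM (y axis) of the 7 called genes, of Gper1 and of Pja1 in each mouse, by genotype (x axis: 4 AG-KO, 4 NG-KO, 3 Δ3102 and 3 WT mice). Points are mice, horizontal lines are means and bars are SDs, cut at 0. Adgrl1 is near 50 FPKM in AG-KO and NG-KO mice and near 25 in WT mice, and Gm15446 is low only in AG-KO mice among these genotypes.

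The count of calls depended on single mice. Leaving out each AG-KO mouse in turn gave 109 genes without replicate 1 and 5 to 7 without another, and leaving out each WT mouse gave 4 to 8. Without AG-KO replicates 3 and 4, edgeR called 0 genes (1172 at an unadjusted p under 0.05), and without AG-KO replicates 1 and 2 it called 811, the 7 included. A fit of all 14 libraries called 5 genes, of which Adgrl1 and Gm15446 are among the 7. The log2 fold change of Adgrl1 stayed between 0.99 and 1.19 over 18 other settings, and its adjusted p was under 0.05 in 13 of them. Leaving out WT replicate 1, 2 or 3 moved it to 0.0508, 0.0564 and 0.0667. Magi1 kept its call in 7 of 18 settings, at log2 fold changes of 0.76 to 1.07. Leaving out any 1 mouse other than AG-KO replicate 1 took its adjusted p to between 0.0558 and 0.147. AC102496 kept its call in 15 settings, Gm15446 in 16, Gm27177 in 11, Gm16867 in 10 and Gm5641 in 9, each with the same sign in all 18.

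Below the threshold, 10 further genes led on the higher side, among them Zbtb6, Zfp961 and Edil3. Each is named because its AG-KO and WT mice did not overlap, so the lack of overlap is not a result of its own. Its unadjusted p in edgeR was also 1 of the 12 smallest in its direction among such genes. Predicted genes and genes averaging under 1 FPKM in the higher group were left out of this ranking. Zbtb6, a zinc finger transcription factor, had 2.34, 2.37, 2.29 and 2.06 FPKM in AG-KO mice and 0.941, 0.659 and 0.786 in WT mice (log2 fold change 1.54, adjusted p = 0.0554 from edgeR). Zfp961, another zinc finger gene, had 1.23 to 2.72 FPKM in AG-KO mice and 0.276 to 0.391 in WT mice (2.58, adjusted p = 0.0598). It was under 0.5 FPKM in every WT mouse, and passed the filter only through the AG-KO mice. Edil3, a secreted protein that binds integrins, had 4.17, 4.52, 3.56 and 4.18 FPKM in AG-KO mice and 2.09, 2.49 and 1.96 in WT mice (0.94, SE 0.12, adjusted p = 0.0944).

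Every AG-KO mouse was above every other mouse of the series for Edil3. NG-KO mice had 1.74, 1.69, 2.06 and 1.61 FPKM and Δ3102 mice 1.95, 1.93 and 2.21. The difference of AG-KO from NG-KO mice was 1.22 on the log2 scale (SE 0.11, adjusted p = 0.000179 from edgeR) and from Δ3102 mice 1.04 (SE 0.12, adjusted p = 0.00513). Its adjusted p against WT mice was under 0.05 in 4 of 18 other settings, and in the fit of all 14 libraries it was 0.0149.

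The other 7 leading genes had log2 fold changes of 0.64 to 1.89. Pik3ca, the catalytic α subunit of phosphoinositide 3-kinase, had 3.81, 3.50, 3.57 and 3.62 FPKM in AG-KO mice and 2.32, 2.39 and 2.40 in WT mice (0.64, SE 0.088, adjusted p = 0.0944 from edgeR). Atg14, a subunit of the lipid kinase complex that starts autophagy, had 4.63 ± 0.471 FPKM in AG-KO mice and 2.27 ± 0.366 in WT mice (SD, n = 4 and 3). Kmt2a, a histone H3 lysine methyltransferase, had 7.44 ± 1.14 and 3.77 ± 0.535, and Pbrm1, a subunit of a chromatin remodeling complex, had 2.33 ± 0.271 and 1.13 ± 0.210, with AG-KO before WT mice in each pair. Cep170b, Fam53b and Zfp950 completed the set. Zfp950 was under 0.5 FPKM in every WT mouse, and passed the filter only through the AG-KO mice. Several of these genes were also higher in some NG-KO or Δ3102 mice. Atg14, for example, had 4.61 and 4.43 FPKM in NG-KO replicates 1 and 2, whereas replicates 3 and 4 had 3.13 and 2.10.

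The leading genes on the lower side included Chtop, Syncrip, Apoe and several genes of liver enzymes and plasma proteins. Chtop, a component of the TREX complex of mRNA export, had 16.4, 15.8, 12.6 and 14.3 FPKM in AG-KO mice and 25.03, 23.6 and 25.8 in WT mice (log2 fold change -0.72, SE 0.092, adjusted p = 0.0944 from edgeR). Syncrip, an RNA-binding protein of neuronal transport granules, had 2.74, 2.94, 2.59 and 2.32 FPKM in AG-KO mice and 4.15, 4.75 and 4.36 in WT mice (-0.71, SE 0.098, adjusted p = 0.0944). Both genes were low in all 4 AG-KO mice. In NG-KO mice Chtop was at 18.9 to 23.1 FPKM, and AG-KO mice differed from them by -0.51 on the log2 scale (SE 0.087, adjusted p = 0.0492). In Δ3102 mice it was at 16.4 to 18.5, with a difference of -0.24 (adjusted p = 0.415). Syncrip was at 2.53 to 4.48 FPKM in NG-KO mice and 2.50 to 4.07 in Δ3102 mice, reaching into the range of the AG-KO mice. The log2 differences of AG-KO mice in Syncrip were -0.42 from NG-KO and -0.26 from Δ3102 mice (adjusted p = 0.295 and 0.642 from edgeR). Of 18 tested genes of mRNA export, Chtop alone had an unadjusted p under 0.05 (12.2% of all tested genes). The list's median log2 fold change was -0.05, against -0.01 for all tested genes.

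Apoe, the main lipid carrier of astrocytes, had 374.6, 358, 352 and 335 FPKM in AG-KO mice and 504, 471 and 480.4 in WT mice. Every AG-KO mouse was below every WT mouse, at a log2 fold change of -0.42 (SE 0.065, adjusted p = 0.126 from edgeR). NG-KO mice, at 348 to 439.9, and Δ3102 mice, at 342 to 457, lay across the gap, and AG-KO mice differed from them by -0.13 and -0.10. Aqp1, a water channel of the choroid plexus, had 1.38, 1.25, 1.002 and 0.811 FPKM in AG-KO mice and 3.68, 2.80 and 3.69 in WT mice (-1.58, adjusted p = 0.0947 from edgeR). For Aqp1, NG-KO mice were at 0.684 to 1.79 FPKM and Δ3102 mice at 3.22 to 7.99. Clic6, also on the choroid plexus list, had the opposite sign (1.59, adjusted p = 0.395 from edgeR). Of 8 tested genes of that list, 4 had a positive and 4 a negative log2 fold change. Zkscan3 had 5.95 ± 0.765 FPKM in AG-KO mice and 9.87 ± 0.600 in WT mice (SD, n = 4 and 3), while NG-KO and Δ3102 mice were at 3.46 to 5.98.

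Gsta3, Apoh, Gnmt and Tdo2 encode proteins that the liver makes in large amounts. Apoh had 0.984, 0.410, 0.352 and 0.150 FPKM in AG-KO mice and 7.67, 5.00 and 9.14 in WT mice (log2 fold change -3.91, adjusted p = 0.0944 from edgeR). Tdo2, tryptophan dioxygenase, had 1.06, 1.02, 1.23 and 1.01 FPKM in AG-KO mice and 2.21, 2.43 and 3.06 in WT mice (-1.21, adjusted p = 0.123 from edgeR). In Δ3102 replicate 3, Tdo2 was at 2.62 FPKM, within its WT range, and Apoh at 0.565, below its WT range. Wfdc21 had no count in any AG-KO mouse and 90, 81 and 89 counts in WT mice, so it was at least 24.3-fold lower in AG-KO mice, with 3 counts per library as the floor. Wfdc21, Gsta3 and Gnmt were under 0.5 FPKM in every AG-KO mouse, and passed the filter only through the WT mice. Lrrc61 had 0.905 ± 0.244 FPKM in AG-KO mice and 3.84 ± 1.402 in WT mice (SD, n = 4 and 3). Levels of other hepatocyte genes moved with the WT mice, as given with the markers of other tissues, and their part in these values was not tested.

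**Figure D3:**
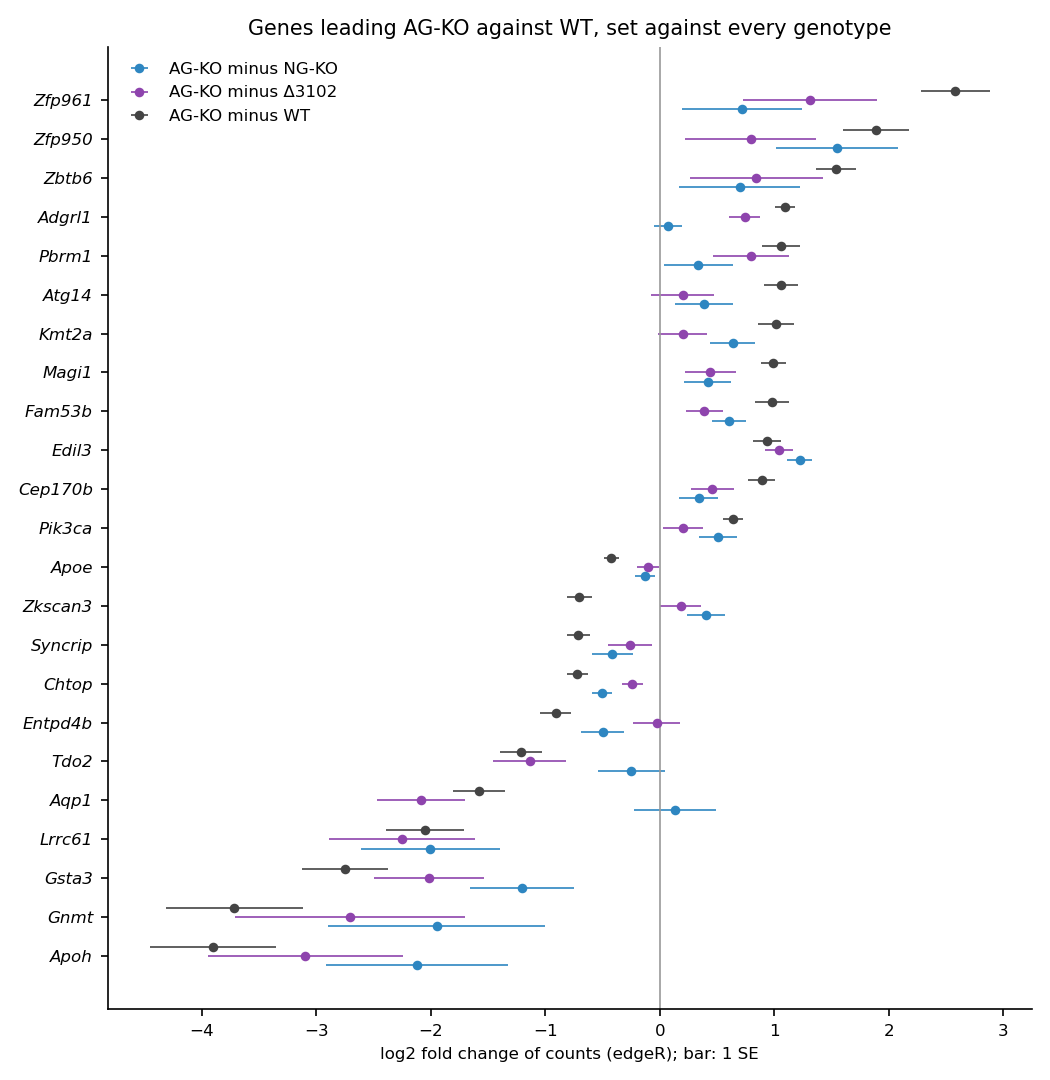
Log2 fold change of counts (x axis, bars of 1 SE) in AG-KO mice against NG-KO mice (blue), Δ3102 mice (purple) and WT mice (black) for 23 of the 24 leading genes (y axis), with Wfdc21 left out because AG-KO mice had no count. Edil3 has similar values in all 3 comparisons, 1.22, 1.04 and 0.94, whereas Adgrl1 is at 0.07 against NG-KO mice.

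In all, edgeR called 23 genes between AG-KO and NG-KO mice (0.137%), 14 higher (0.0836%) and 9 lower (0.0538%) in AG-KO mice. Between AG-KO and Δ3102 mice it called 5 (0.0299%), 3 higher (0.0179%) and 2 lower (0.0119%). At an unadjusted p under 0.05, 7.68% of genes were higher and 7.21% lower than in NG-KO mice, and 5.29% higher and 5.64% lower than in Δ3102 mice. Of the 7 genes called against WT mice, Gm15446 was the only one among them in either comparison. The log2 differences of the other 6 from NG-KO mice were 0.07 for Adgrl1, 0.42 for Magi1, 0.62 for Gm5641, 1.37 for AC102496, -2.94 for Gm27177 and -3.75 for Gm16867. The adjusted p of these ran from 0.106 to 0.824. The log2 differences from Δ3102 mice were 0.74, 0.44, 0.04 and 0.48 for Adgrl1, Magi1, Gm5641 and AC102496. Those of Gm27177 and Gm16867 were 1.29 and 0.25, and the adjusted p of these 6 ran from 0.180 to 0.982 in edgeR. Without AG-KO replicate 2, 326 genes differed from NG-KO mice.

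Pja1, a RING-type ubiquitin ligase that the study followed, was low in AG-KO mice. It had 14.7, 22.6, 22.4 and 27.4 FPKM in AG-KO mice and 56.0, 45.9 and 61.4 in WT mice, without overlap. The log2 fold change was -1.28 (SE 0.21, unadjusted p = 0.000353 and adjusted p = 0.148 from edgeR). In NG-KO mice Pja1 was at 57.4, 61.9 and 57.2 in replicates 1 to 3 and at 24.96 in replicate 4, within the range of the AG-KO mice. The log2 difference of AG-KO from NG-KO mice was -1.19 (SE 0.26, adjusted p = 0.104). In Δ3102 mice Pja1 was at 19.9, 14.8 and 19.7 FPKM, within the range of the AG-KO mice, with a log2 difference of AG-KO from Δ3102 mice of 0.30 (SE 0.28, adjusted p = 0.729 from edgeR). Pja1 ended at an adjusted p of 0.0269 without AG-KO replicate 1 (log2 fold change -1.13) and of 6.62e-06 in DESeq2, and its sign was the same in all 18 other settings. Of 30 tested ubiquitin ligases, 3 were higher and 1, Pja1, lower at an unadjusted p under 0.05 (5.86% and 6.31% of all tested genes). The median log2 fold change of the list was 0.01. The Pja1 paralog Pja2 had 38.9, 33.8, 72.1 and 66.8 FPKM in AG-KO mice and 38.4, 36.9 and 36.4 in WT mice, with AG-KO replicates 3 and 4 above the rest.

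Among markers of reactive astrocytes, Gfap overlapped between the groups and Serpina3n was above all WT mice in 3 of 4 AG-KO mice. Gfap, the intermediate filament of astrocytes, had 119, 97.8, 121 and 101 FPKM in AG-KO mice and 102, 119.7 and 97.9 in WT mice (log2 fold change 0.07, SE 0.12, adjusted p = 0.823 from edgeR). Serpina3n, a secreted protease inhibitor of reactive astrocytes, had 43.1, 40.6, 44.7 and 32.9 FPKM in AG-KO mice and 31.1, 37.3 and 22.3 in WT mice. AG-KO replicate 4 and WT replicate 2 made the groups overlap, and the log2 fold change was 0.44 (SE 0.19, adjusted p = 0.407) and an exact permutation p of 0.0857. Of 8 tested pan-reactive markers, 3 (S1pr3, Cd44 and Serpina3n) were higher at an unadjusted p under 0.05, against 5.86% of all tested genes, with a median log2 fold change of 0.09. Leaving out 1 mouse left 0 of them without WT replicate 1, 1 without AG-KO replicate 1, 2 or 4 or WT replicate 3, and 2 without AG-KO replicate 3 or WT replicate 2. Lcn2, a strong marker of reactive astrocytes, did not pass the filter, at 0.329 ± 0.133 FPKM in AG-KO mice and 0.688 ± 0.477 in WT mice (SD, n = 4 and 3).

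Of 10 tested A1 markers, H2-D1 was higher and Serping1 lower at an unadjusted p under 0.05 (5.86% and 6.31% of all tested genes). Serping1, the C1 complement inhibitor, had 4.91, 3.38, 3.00 and 4.62 FPKM in AG-KO mice and 6.95, 5.94 and 7.03 in WT mice (log2 fold change -0.71, SE 0.20, adjusted p = 0.325 from edgeR). H2-D1, a class I histocompatibility gene, had 27.1, 16.4, 18.8 and 22.4 FPKM in AG-KO mice and 15.8, 17.6 and 15.8 in WT mice. The A1 list had a median log2 fold change of 0.11. The 6 tested A2 markers had a median of -0.14, with S100a10 at -0.20 and Ptgs2 at -0.14. Tnf, Il6 and Il1b, which encode proinflammatory cytokines, did not pass the filter, and their mean FPKM was at most 0.121 in AG-KO mice and at most 0.0616 in WT mice. Among the 8 tested genes of the cytokine and NF-kappaB list, log2 fold changes ran from -0.17 to 0.27, with Il18 at -0.10 and Nfkbia at -0.01.

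Homeostatic astrocyte genes were mixed. Of 30, 6 were higher and 2 lower at an unadjusted p under 0.05 (5.86% and 6.31% of all tested genes), with a median log2 fold change of 0.05. Leaving out AG-KO replicate 3, AG-KO replicate 4 or WT replicate 1 left 2 higher and 1 lower in each case, and leaving out WT replicate 3 left 3 and 1. Kcnj10, the inward rectifier channel that takes up potassium, had 53.7, 39.5, 52.4 and 53.2 FPKM in AG-KO mice and 31.7, 37.1 and 33.4 in WT mice. All AG-KO mice were higher, at a log2 fold change of 0.58 (SE 0.13, adjusted p = 0.299 from edgeR). NG-KO mice were at 26.997 to 33.5, and AG-KO mice differed from them by 0.72 on the log2 scale (adjusted p = 0.0344). Atp1b2, a sodium pump subunit, had 128, 132, 139 and 144 FPKM in AG-KO mice and 117, 118 and 122 in WT mice (log2 fold change 0.22, adjusted p = 0.388). Acsbg1, an acyl-CoA synthetase, had 42.6 ± 2.73 FPKM in AG-KO mice and 34.9 ± 1.58 in WT mice (SD, n = 4 and 3). With AG-KO replicates 1 and 2 alone, 2 genes of the list were higher and 1 lower.

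Astrocytes also secrete factors that build synapses and engulf synaptic material. Of 17 such genes, 1 was higher and 2 lower at an unadjusted p under 0.05 (5.86% and 6.31% of all tested genes). Their median log2 fold change was 0.00. Megf10, an engulfment receptor, had 2.88, 2.40, 2.43 and 2.38 FPKM in AG-KO mice and 1.67, 2.27 and 1.98 in WT mice (log2 fold change 0.38, adjusted p = 0.383 from edgeR). Mertk, the other main engulfment receptor, had 7.25, 7.01, 8.76 and 7.22 FPKM in AG-KO mice and 9.60, 9.60 and 10.5 in WT mice (-0.36, adjusted p = 0.356). The pair thus had values of opposite sign. Gpc4, a glypican that recruits AMPA receptors, had 7.67 ± 1.45 FPKM in AG-KO mice and 10.4 ± 0.967 in WT mice (SD, n = 4 and 3).

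Genes of the signaling chain below GPR30 had small fold changes. Of 30 genes for G proteins, adenylyl cyclases, protein kinase A and CREB with its cofactors, 5 were higher and 0 lower at an unadjusted p under 0.05 (5.86% and 6.31% of all tested genes), with a median log2 fold change of 0.06. Leaving out AG-KO replicate 4, WT replicate 1 or WT replicate 2 left 0 higher in edgeR, and leaving out AG-KO replicate 3 or WT replicate 3 left 1. The histone acetyltransferase and CREB coactivator Crebbp had 3.34, 3.50, 4.89 and 4.66 FPKM in AG-KO mice and 2.72, 2.99 and 3.37 in WT mice (0.47, adjusted p = 0.388 from edgeR). Its relative Ep300 had 4.71 ± 0.637 FPKM in AG-KO mice and 3.81 ± 0.223 in WT mice (SD, n = 4 and 3). With AG-KO replicates 1 and 2 alone, 1 gene of the list was higher. Of 9 tested steroid receptor genes, 2 were higher, Nr3c1 among them, against 5.86% of all tested genes. Without AG-KO replicate 3, AG-KO replicate 4, WT replicate 1 or WT replicate 2, 0 of these receptor genes were higher. Without AG-KO replicate 1, AG-KO replicate 2 or WT replicate 3, 1 was. Nr3c1, the glucocorticoid receptor, had 6.26, 6.06, 6.39 and 6.29 FPKM in AG-KO mice and 1.44, 1.83 and 5.97 in WT mice, so that WT replicate 3 was close to the AG-KO mice. The estrogen receptor genes Esr1 and Esr2 did not pass the filter.

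Immediate early genes known to answer CREB had mostly positive log2 fold changes in AG-KO mice. Neuronal activity induces these genes within minutes through CREB and serum response factor. Of 25, 8 were higher and 0 lower at an unadjusted p under 0.05 in edgeR, against 5.86% and 6.31% of all tested genes, and 22 had a positive log2 fold change, with a median of 0.41. The sequences of 3 of them, and of Adgrl1 as a called gene, chosen after their values were seen, are shown for the 250 bases before the start of transcription, 5′ to 3′ on the strand of the gene, from RefSeq on GRCm38.p6. Capitals mark the core TGACG or its complement CGTCA and, where they overlap, the full element TGACGTCA. Npas4 is from chr19:4989972-4990221 on the minus strand, Dusp1 from chr17:26508473-26508722 on the minus strand, Fos from chr12:85473640-85473889 on the plus strand, and Adgrl1 from chr8:83899848-83900097 on the plus strand.
Npas4: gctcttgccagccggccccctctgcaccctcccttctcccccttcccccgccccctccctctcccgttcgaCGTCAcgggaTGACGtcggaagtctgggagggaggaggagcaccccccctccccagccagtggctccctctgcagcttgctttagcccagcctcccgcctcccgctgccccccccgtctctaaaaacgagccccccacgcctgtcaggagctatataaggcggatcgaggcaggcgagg
Dusp1: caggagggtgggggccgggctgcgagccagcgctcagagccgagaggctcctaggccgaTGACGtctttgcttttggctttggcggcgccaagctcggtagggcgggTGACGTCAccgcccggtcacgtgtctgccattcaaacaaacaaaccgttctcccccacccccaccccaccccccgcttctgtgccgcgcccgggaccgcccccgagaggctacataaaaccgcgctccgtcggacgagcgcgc
Fos: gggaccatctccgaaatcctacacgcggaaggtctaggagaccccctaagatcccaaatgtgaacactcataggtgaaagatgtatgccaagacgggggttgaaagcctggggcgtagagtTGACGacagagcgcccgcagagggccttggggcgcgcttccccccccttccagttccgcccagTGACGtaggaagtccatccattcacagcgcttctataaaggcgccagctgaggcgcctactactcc
Adgrl1: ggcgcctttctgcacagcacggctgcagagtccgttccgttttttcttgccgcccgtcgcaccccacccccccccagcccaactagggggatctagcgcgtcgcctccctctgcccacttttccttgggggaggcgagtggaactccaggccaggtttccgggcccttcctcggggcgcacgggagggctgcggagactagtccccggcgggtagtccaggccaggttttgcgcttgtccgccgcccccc

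TGACG on either strand occurred in the windows of 15 of the 19 immediate early genes with an entry in the promoter table (78.9%), against 29.6% of the 11121 tested genes with one. The list was assembled from genes known to answer CREB, so this share describes the list. Among the promoters of all genes, 17.8% held TGACG and 1.55% TGACGTCA. Of the genes higher in AG-KO mice at an unadjusted p under 0.05, 28.9% held TGACG, and of those lower, 29.6%. These shares were close to that of all tested genes. The window of Adgrl1 holds neither form.

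Npas4, a transcription factor induced by calcium entry, had 5.86, 4.82, 3.57 and 4.80 FPKM in AG-KO mice and 1.73, 2.32 and 1.404 in WT mice. All AG-KO mice were above all WT mice, at a log2 fold change of 1.41 (SE 0.22, adjusted p = 0.126 from edgeR). Fos had 11.04, 12.4, 4.70 and 3.34 FPKM in AG-KO mice and 2.75, 3.52 and 3.96 in WT mice (1.22, SE 0.44, adjusted p = 0.387). Arc, which trims AMPA receptors from synapses, had 71.6, 74.8, 53.3 and 17.3 FPKM in AG-KO mice and 24.7, 31.9 and 21.6 in WT mice (1.07, adjusted p = 0.399). In both, AG-KO replicates 1 and 2 were high and AG-KO replicate 4 lay within or below the WT range. The median of the list relative to the WT mean was 0.82, 0.79, 0.26 and -0.21 on the log2 scale in AG-KO replicates 1 to 4. Dusp1, a phosphatase of MAP kinases, had 5.48, 5.96, 3.65 and 4.35 FPKM in AG-KO mice and 2.64, 2.27 and 4.16 in WT mice. Without AG-KO replicates 3 and 4, 16 of the 25 genes were higher with a median of 0.81, and without AG-KO replicates 1 and 2, 3 were higher and 2 lower with a median of 0.05. Leaving out AG-KO replicate 1, AG-KO replicate 2, WT replicate 1 or WT replicate 2 left 3 higher in each case, leaving out WT replicate 3 left 4, and leaving out AG-KO replicate 4 gave 14.

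Cholesterol synthesis genes had positive list medians in all 4 AG-KO mice, at 0.28, 0.39, 0.20 and 0.15 relative to the WT mean. Of 20, 9 were higher and 0 lower at an unadjusted p under 0.05 in edgeR (5.86% and 6.31% of all tested genes), with a median log2 fold change of 0.24. In 7 of the 20, all AG-KO mice lay above all WT mice, against 5.22% of all tested genes. Sqle, squalene epoxidase, had 12.2, 13.9, 13.1 and 12.4 FPKM in AG-KO mice and 9.31, 9.52 and 9.52 in WT mice (0.48, SE 0.082, adjusted p = 0.162). Dhcr7, which makes cholesterol from its last precursor, had 7.06, 8.08, 9.10 and 7.57 FPKM in AG-KO mice and 4.89, 5.96 and 5.47 in WT mice (0.58, SE 0.13, adjusted p = 0.294). Mvk, mevalonate kinase, had 6.28, 7.85, 7.00 and 6.56 FPKM in AG-KO mice and 4.68, 4.93 and 5.39 in WT mice (0.50, SE 0.12, adjusted p = 0.299). Srebf2, the transcription factor of the pathway, had 28.7, 26.0, 28.03 and 27.9 FPKM in AG-KO mice and 25.2, 22.1 and 22.7 in WT mice (0.27, adjusted p = 0.345). Of the 20, 10 were higher without AG-KO replicates 3 and 4, and without AG-KO replicates 1 and 2, 8 were higher and 1 lower. The median of the list relative to NG-KO mice was 0.18.

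Of 20 genes of glycolysis and the lactate shuttle, 4 were higher and 0 lower at an unadjusted p under 0.05 in edgeR (5.86% and 6.31% of all tested genes), with a median log2 fold change of 0.07. Leaving out WT replicate 2 left 0 higher and leaving out WT replicate 1 left 2. Pygb, brain glycogen phosphorylase, had 72.0, 67.1, 69.8 and 69.1 FPKM in AG-KO mice and 62.2, 59.5 and 63.3 in WT mice (0.20, SE 0.066, adjusted p = 0.357 from edgeR). Gpi1, the second enzyme of glycolysis, had 104 ± 3.15 FPKM in AG-KO mice and 91.1 ± 3.56 in WT mice (SD, n = 4 and 3).

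**Figure D4:**
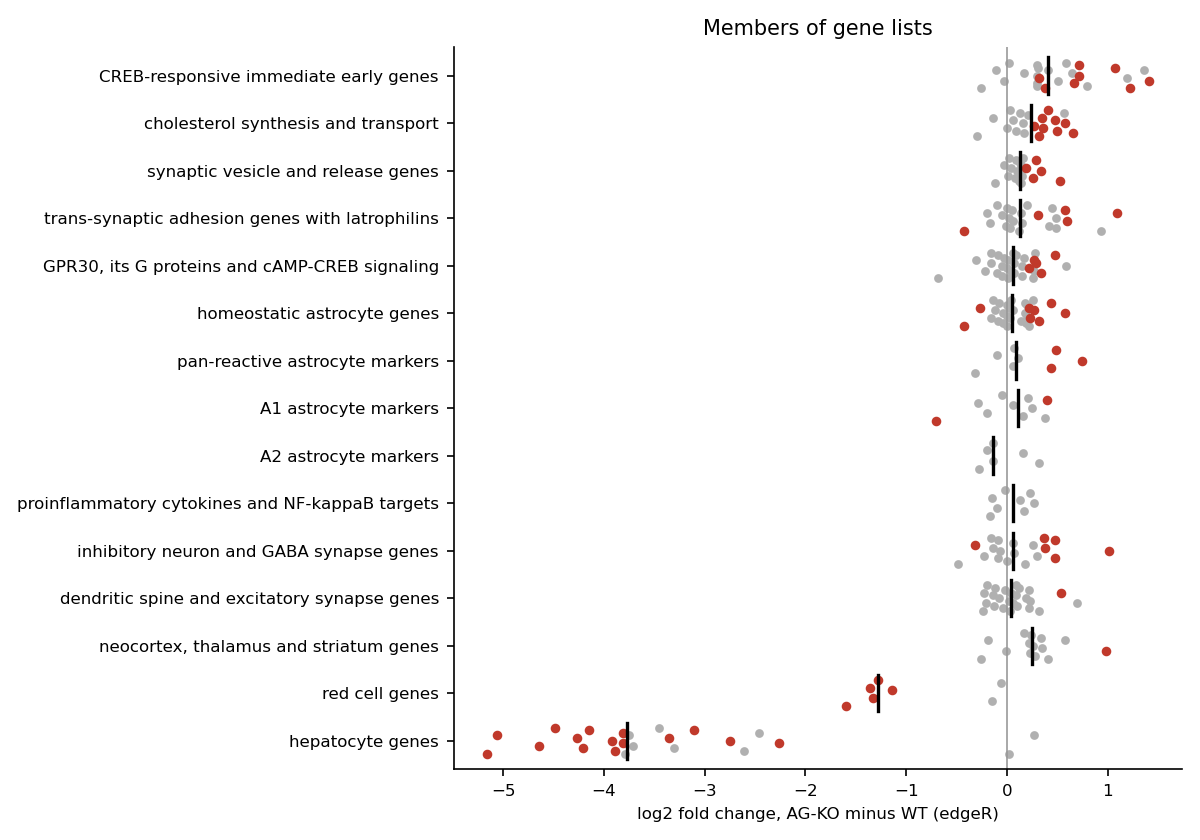
Log2 fold change of counts in AG-KO against WT mice (x axis) for the tested members of 15 gene lists (y axis). Red points are genes at an unadjusted p under 0.05 in edgeR, gray points are the others and black lines are medians. The medians of immediate early and cholesterol genes are 0.41 and 0.24, those of astrocyte lists are between -0.14 and 0.11, and those of red cell and hepatocyte genes are -1.28 and -3.77.

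Among synaptic genes, trans-synaptic adhesion genes held the one called list member, Adgrl1. That list was chosen with earlier results of these data known, so its holding Adgrl1 is not a result of its own. Of 24 tested, 4 were higher and 1 lower at an unadjusted p under 0.05 in edgeR (5.86% and 6.31% of all tested genes). The 4 include Adgrl1, and the median log2 fold change was 0.13. With the length trend removed the counts were unchanged and the median was 0.03. Leaving out AG-KO replicate 1 or 2 gave 7 higher, and leaving out AG-KO replicate 3, AG-KO replicate 4 or WT replicate 3 left 3. Leaving out WT replicate 1 gave 5 and leaving out WT replicate 2 gave 4. With AG-KO replicates 1 and 2 alone, 3 were higher and the median was 0.09. Flrt1 and Flrt3 are both ligands of latrophilins. Flrt1 had 2.88, 2.70, 2.58 and 3.33 FPKM in AG-KO mice and 1.89, 1.92 and 2.01 in WT mice (0.59, SE 0.13, adjusted p = 0.296 from edgeR). Flrt3 had 3.99, 5.10, 4.51 and 4.84 FPKM in AG-KO mice and 6.27, 6.39 and 6.34 in WT mice (-0.43, SE 0.12, adjusted p = 0.325). Neither pair of groups overlapped, and the signs were opposite. Nrxn2, a neurexin, had 16.8, 19.0, 20.6 and 21.2 FPKM in AG-KO mice and 12.3, 15.1 and 12.5 in WT mice (0.57, SE 0.13, adjusted p = 0.294). Adgrl2, the latrophilin 2 gene, had 3.804, 1.98, 3.196 and 3.59 FPKM in AG-KO mice and 2.32, 1.92 and 2.81 in WT mice.

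Of 20 genes of vesicle release, 5 were higher and 0 lower at an unadjusted p under 0.05 (5.86% and 6.31% of all tested genes), with a median of 0.13. With AG-KO replicates 1 and 2 alone, 3 were higher and the median was 0.04, and with the length trend removed it was 0.07. Leaving out WT replicate 1 or 2 left 2 higher, and leaving out AG-KO replicate 4 or WT replicate 3 left 3. Cplx1, a complexin that clamps vesicle fusion, had 356, 340.1, 339 and 402 FPKM in AG-KO mice and 287, 273 and 314 in WT mice (log2 fold change 0.33, SE 0.095, adjusted p = 0.343 from edgeR). Vamp2, the vesicle SNARE, had 345 ± 18.5 FPKM in AG-KO mice and 289 ± 13.8 in WT mice (SD, n = 4 and 3). The NG-KO means of Cplx1 and Vamp2, 372 and 345, were as high as those of AG-KO mice. The vesicle list's median relative to NG-KO mice was -0.03. Of 25 spine and excitatory synapse genes, Shank1 was higher and 0 were lower (5.86% and 6.31% of all tested genes), with a median of 0.04. Shank1, a scaffold of the postsynaptic density, had 24.4, 26.0, 41.0 and 39.1 FPKM in AG-KO mice and 23.3, 22.3 and 23.7 in WT mice, with AG-KO replicates 3 and 4 far above the others.

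Of 19 genes of inhibitory neurons and GABA synapses, 5 were higher and 1 lower at an unadjusted p under 0.05 (5.86% and 6.31% of all tested genes). The median log2 fold change was 0.06. Of the 19, 10 had a positive log2 fold change, Gabra2, Gad2 and Npy among them, and 9 a negative one, down to -0.49. Leaving out 1 mouse moved the median between -0.02, without AG-KO replicate 3, and 0.22, without WT replicate 3. Gabra2, a GABA-A receptor subunit, had 6.82, 9.73, 11.9 and 10.6 FPKM in AG-KO mice and 5.44, 5.34 and 4.07 in WT mice (1.01, SE 0.22, adjusted p = 0.285 from edgeR). NG-KO mice had 13.7, 9.65, 9.85 and 5.44, and Δ3102 mice 5.83, 3.33 and 5.77. Gad2, which makes GABA, had 22.9 ± 3.21 FPKM in AG-KO mice and 16.8 ± 1.08 in WT mice, and the peptide gene Npy 94.8 ± 8.22 and 74.9 ± 6.14 (SD, n = 4 and 3).

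Markers of regions next to the hippocampus, and of fields within it, give the makeup of the dissected tissue. Of 14 tested genes that mark neocortex, thalamus or striatum, 11 had a positive log2 fold change. Drd2, the dopamine D2 receptor, alone had an unadjusted p under 0.05 (12.2% of all tested genes). The list's median relative to the WT mean was 0.26, 0.27, 0.25 and 0.27 in AG-KO replicates 1 to 4 and 0.01, -0.16 and 0.17 in WT replicates 1 to 3. Its summed FPKM overlapped, at 69.9 to 85.9 in AG-KO mice and 63.6 to 70.6 in WT mice. The 18 hippocampal field genes had a median of 0.05, with 2 higher and 2 lower (5.86% and 6.31% of all tested genes). Among them, Trpc6 and C1ql2, which mark the dentate gyrus, were lower, and Cacng5 and Map3k15, which mark CA2, were higher at an unadjusted p under 0.05. C1ql2 had 9.61, 24.2, 19.0 and 12.3 FPKM in AG-KO mice and 31.8, 32.9 and 25.1 in WT mice (log2 fold change -0.85, SE 0.30, adjusted p = 0.383 from edgeR). Cacng5 had 12.5, 5.07, 3.87 and 5.02 FPKM in AG-KO mice and 3.96, 1.86 and 2.43 in WT mice. The part of dissection in the synaptic, adhesion and immediate early values was not tested.

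Hepatocyte and red cell transcripts were lower in AG-KO mice. Of 24 tested hepatocyte genes, 15 were lower and 0 higher at an unadjusted p under 0.05 in edgeR (6.31% and 5.86% of all genes). Of the 24, 22 lay below all WT mice (8.51%). Members could pass the filter through the 3 WT mice alone, so these counts may in part come from the filter. Leaving out 1 mouse gave 8 lower without AG-KO replicate 2 or WT replicate 3, 9 without WT replicate 1 and 22 without AG-KO replicate 1. Their summed FPKM was 410.4, 106.8, 334 and 148 in AG-KO mice and 875, 829.8 and 813 in WT mice. The sum holds Ttr and Trf, which are also on the choroid plexus and oligodendrocyte lists. In AG-KO replicate 3 the summed FPKM of the choroid plexus list was 287. The hepatocyte median relative to the WT mean was -1.83, -6.05, -9.89 and -8.54 on the log2 scale in AG-KO replicates 1 to 4. Alb, serum albumin and a defining hepatocyte marker, had 44.8 and 1.12 FPKM in AG-KO replicates 1 and 2, was listed at 0.0001 in AG-KO replicates 3 and 4, and had 167, 126 and 165 in WT mice. With AG-KO replicates 1 and 2 alone, 11 hepatocyte genes were lower, and with replicates 3 and 4 alone 22 were. Cyp2e1, a liver cytochrome P450, had 6.27, 3.601, 0.640 and 0.812 FPKM in AG-KO mice and 17.4, 23.1 and 32.9 in WT mice (log2 fold change -3.10, SE 0.74, adjusted p = 0.299). Of 7 tested red cell genes, 5 were lower (6.31% of all tested genes), with a median of -1.28. Without WT replicate 2, 2 were lower, with a median of -0.97. Hba-a1, an α-globin, had 93.8, 87.4, 98.2 and 42.2 FPKM in AG-KO mice and 125, 258 and 211 in WT mice. Muscle and spermatid genes had medians of -1.67 and -2.79. At an unadjusted p under 0.05 in edgeR, 1 and 0 of 14 genes each were lower (6.31% of all tested genes). Their summed FPKM overlapped between the groups, at 40.0 to 408 in AG-KO mice and 154 to 907 in WT mice for muscle, and 16.7 to 77.6 in AG-KO mice and 11.3 to 256 in WT mice for spermatids. Without AG-KO replicate 2 the medians were -2.85 and -8.92, with 12 spermatid genes lower, and without WT replicate 1 the muscle median was -1.06. Tnp2, a spermatid protein, had 13.0 FPKM in AG-KO replicate 2 and no more than 0.121 in AG-KO replicates 1, 3 and 4, against 0.652, 40.7 and 55.2 in WT mice.

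Lists of other cell types of the brain had medians on either side of 0. Median log2 fold changes were -0.05 for 15 oligodendrocyte genes, 0.07 for 12 precursor genes, 0.22 for 16 microglia genes, 0.06 for 17 endothelial and mural genes, 0.07 for 8 tested choroid plexus genes, 0.39 for 9 tested ependymal genes and 0.00 for 13 meningeal genes. Leaving out 1 mouse moved the ependymal median between 0.04, without AG-KO replicate 1, and 1.11, without WT replicate 2, and the oligodendrocyte median between -0.29, without WT replicate 3, and 0.27, without WT replicate 2. Among microglia genes, C1qb, a complement subunit, had 33.9, 41.3, 45.4 and 41.1 FPKM in AG-KO mice and 29.6, 34.1 and 29.9 in WT mice (log2 fold change 0.41, adjusted p = 0.362 from edgeR). Aif1, which encodes IBA1, had 2.55 ± 0.803 FPKM in AG-KO mice and 4.16 ± 0.961 in WT mice (SD, n = 4 and 3). Microglia genes thus had values in both directions.

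Fold changes followed transcript length, and the shift in short transcripts lay in AG-KO replicates 3 and 4. Spearman's rho between the longest annotated transcript and the log2 fold change was 0.29 across the 16742 genes, which are not independent replicates. The median log2 fold change was -0.28 for 2652 genes under 1000 bases and 0.11 for 806 genes of at least 8000 bases. In the shortest class, 1.47% of genes were higher and 8.11% lower at an unadjusted p under 0.05, and in the longest 12.8% and 2.98%. Genes for cytosolic ribosomal proteins, which are short, had a median of -0.30, with 28 of 79 lower and 0 higher at an unadjusted p under 0.05 in edgeR (6.31% and 5.86% of all tested genes). With the length trend removed the median was -0.15, with 18 lower and 1 higher. Leaving out WT replicate 1 left 8 lower, and leaving out WT replicate 2 or 3 left 14 and 18. Relative to the WT mean, their medians were -0.07, -0.10, -0.51 and -0.54 in AG-KO replicates 1 to 4. Of the 79, 7 were lower without AG-KO replicates 3 and 4, and without AG-KO replicates 1 and 2, 66 were. Nuclear genes of oxidative phosphorylation had a median of -0.26 with 13 of 80 lower, against 6.31% of all tested genes. With AG-KO replicates 1 and 2 alone 3 were lower and the median was -0.04, with AG-KO replicates 3 and 4 alone 61 were lower, and with the length trend removed 7 were lower and the median was -0.09. The 13 mitochondrially encoded genes were shifted the other way, at -0.49, 0.02, 0.85 and 0.87 in AG-KO replicates 1 to 4. Their list had 0 genes at an unadjusted p under 0.05 in edgeR, but 10 were higher without AG-KO replicate 1 (median 0.63), and 11 higher and 1 lower without AG-KO replicates 1 and 2. With a trend over length removed from each library, edgeR called the same 7 genes. The part of RNA quality in the length trend was not tested.

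**Figure D5:**
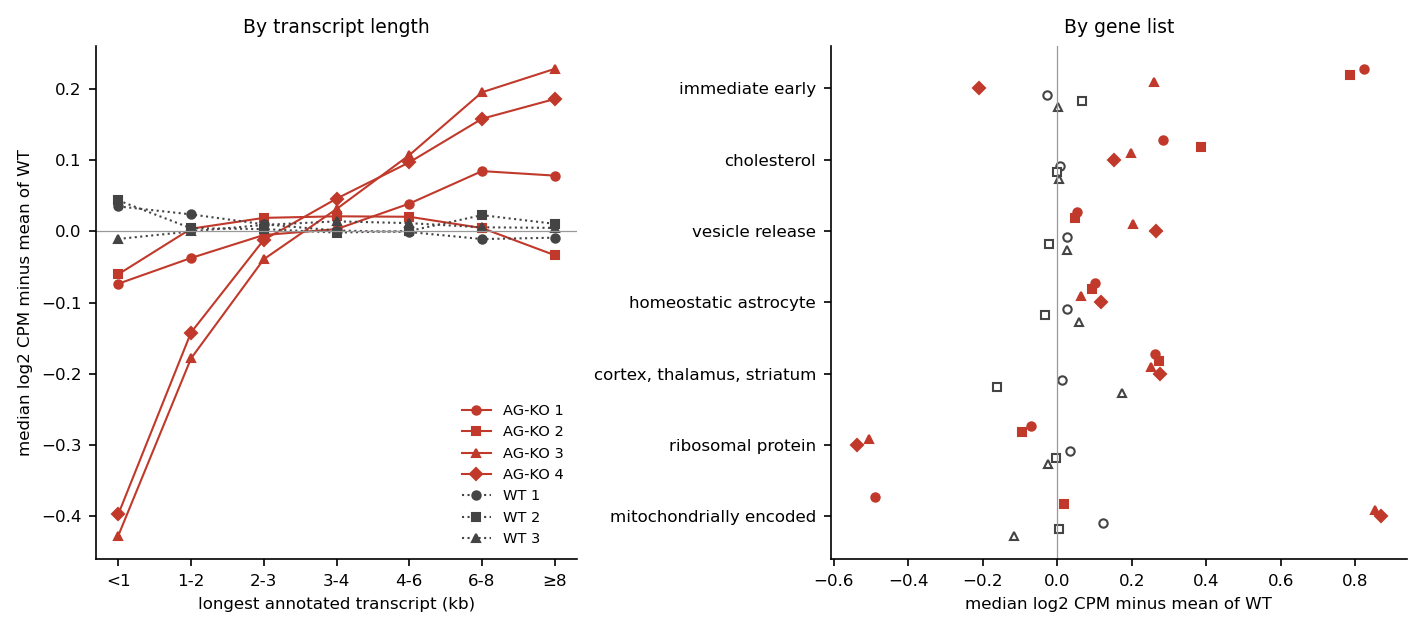
Median log2 CPM relative to the mean of the WT mice in each library, by longest transcript length in kb (left) and by gene list (right). Red symbols are AG-KO mice and black or open symbols WT mice, with a circle, square, triangle and diamond for replicates 1 to 4. AG-KO replicates 3 and 4 are at -0.43 and -0.40 for the shortest transcripts, and the immediate early medians are 0.82, 0.79, 0.26 and -0.21 in AG-KO replicates 1 to 4.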

How the data were processed

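Hippocampal poly(A) RNA of 14 mice was sequenced by the authors as paired-end libraries, of which 7 were compared. According to the submitters' processing notes, cutadapt 1.9, HISAT2 2.0.4, StringTie 1.3.4d, UMI-tools, DESeq2 and edgeR were used on GRCm38. The deposited FPKM values were calculated by the authors, with 0.0001 for genes without signal. The deposited count values are whole numbers per gene, made by the authors and not normalized, and their counting program is not given in the sources used here. GENCODE vM21 gave coordinates and transcript lengths.

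Counts of the 7 libraries were fitted with edgeR 4.0.16 in R 4.3.3 (TMM, quasi-likelihood test, 1 mean per genotype). Adjusted p is Benjamini-Hochberg over 16742 genes with a threshold of 0.05, and the SE is the log2 fold change over the square root of F. AG-KO minus NG-KO and AG-KO minus Δ3102 values came from a fit of all 14 libraries, whose total counts ran from 44527024 to 62669865. Exact two-sided permutation tests used 35 splits of FPKM. Named are genes past the threshold, and Gper1, Pja1, Serpina3n and Gfap. In each direction, the genes with the 12 smallest unadjusted p in edgeR are named, called genes included. For that ranking, predicted genes were left out, groups did not overlap and the higher group averaged 1 FPKM or more. Also named are predicted genes past the threshold and up to 4 members of each of 31 gene lists at an unadjusted p under 0.05. Arc, Srebf2, Adgrl2, Pja2, Alb, Lcn2, Esr1, Esr2, Tnf, Il6, Il1b, Gpr146, 3110082I17Rik, Micall2, Ints1, Elfn1, Fam20c, Ache and the neighbors of called genes were added after their values were seen. Members and lists were chosen with earlier results of these data known. Ribosomal and oxidative phosphorylation lists were made by symbol pattern.

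Alternatives were the 14-library fit, no filter, an FPKM of at least 1, median-ratio scaling, DESeq2 1.42.0, limma 3.58.1 on log2(FPKM + 0.1) and log2(FPKM + 1), the replicate number as a block and leaving out each mouse. Leaving out AG-KO replicates 3 and 4 or 1 and 2, and removing a trend over length, were added after seeing the data. Some genes that the rule names are not reported here. The procedure was tested on simulated data.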

Additional observations from a re-analysis of the deposited data

Results flagged for a closer look

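In 6 genes or contrasts, AG-KO mice differed directly from another knockout. The log2 differences from NG-KO mice were 1.22 for Edil3 (adjusted p = 0.000179 from edgeR), 0.72 for Kcnj10 (0.0344), -0.51 for Chtop (0.0492) and -3.37 for Gm15446 (0.000187). From Δ3102 mice they were 1.04 for Edil3 (0.00513) and -3.02 for Gm15446 (0.00255). All of these comparisons share the AG-KO mice.

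In 8 of 108 genes, 1 AG-KO mouse lay far from the other 3, and chance gives this in about 1 of 20 groups. AG-KO replicate 1 was the outlying mouse for Zfp950 at 0.914 FPKM (others 1.81 to 1.99), Megf10 at 2.88 (2.38 to 2.43), Cacng5 at 12.5 (3.87 to 5.07) and Serpina3k at 4.28 (0.0001 to 0.506). AG-KO replicate 2 was low for Kcnj10 at 39.5 (52.4 to 53.7) and high for Tnp2 at 13.0 (0.0001 to 0.121). Mertk was at 8.76 in AG-KO replicate 3 (7.01 to 7.25), and Zkscan3 at 4.81 in AG-KO replicate 4 (6.22 to 6.40).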

How the results depend on the processing

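The count of genes called against WT mice was 7, and it was 323 in DESeq2, 62 in limma on log2(FPKM + 1), 0 without AG-KO replicates 3 and 4 and 811 without AG-KO replicates 1 and 2. Leaving out single mice gave 4 to 109 against WT mice, with the highest count without AG-KO replicate 1. Leaving out single AG-KO mice gave 15 to 326 against NG-KO mice and 4 to 10 against Δ3102 mice, both highest without AG-KO replicate 2. No NG-KO or Δ3102 mouse was left out. With the replicate number as a block, edgeR called 0 genes (1105 at an unadjusted p under 0.05, against 2038 without it). Deviations of same-numbered mice correlated at 0.13, 0.18 and -0.05, so the numbers were not taken to pair mice. Pja1 passed in 3 of 18 settings: DESeq2 (-1.28), without AG-KO replicates 1 and 2 (-1.06) and without AG-KO replicate 1 (-1.13). Over all 7 fits without 1 mouse it ran from -1.42 to -1.13. Gper1 ran from -0.996 to 0.074 when single mice were left out, the last without WT replicate 3. Signs turned for genes near 0. Without AG-KO replicates 3 and 4 the log2 fold change was 0.083 for S100a10, 0.023 for Ptgs2, 0.26 for Nfkbia, -0.16 for mt-Co1, -0.13 for mt-Co3, 0.20 for Rarres2 and 0.11 for Rsph1, and without AG-KO replicates 1 and 2 it was 0.027 for Ptgds. With the length trend removed it was 0.052 for S100a10, 0.12 for Il18, 0.058 for Nfkbia, 0.12 for Ptgds and 0.059 for Prm1. With the replicate block it was 0.054 for Ptgs2, 0.047 for Nfkbia, -0.067 for mt-Co3 and 0.075 for Mobp. In limma mt-Co3 was at -0.015 with both pseudocounts, and Prm1 at 0.81 and 0.39. Ptgds was at 0.0011 with all 14 libraries, 0.0096 with an FPKM of at least 1, 0.0048 with median-ratio scaling and 0.0047 in DESeq2. Leaving out single mice gave the ranges -0.44 to 0.17 for Ptgs2, -0.22 to 0.092 for Nfkbia, -0.041 to 0.16 for mt-Co3, -0.29 to 0.33 for Mobp, -0.73 to 0.045 for Rarres2, -0.71 to 0.28 for Rsph1, -0.28 to 0.20 for Ptgds and -0.89 to 0.16 for Prm1. The cause of these turns was not tested. The other genes chosen by the rule kept their sign in the settings run for them, 18 for most and 17 for Cd44, Map3k15, Clic6 and Tat, and genes added after their values were seen, other than Gpr146, were not followed over these settings.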
